A study of Mus musculus with 6 samples.

Results

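Rnf26 and 6 genes beside it on mouse chromosome 9 (C1qtnf5, Mfrp, Usp2, Mcam, Cbl and Nlrx1) were followed through bulk RNA-seq of dorsal root ganglia. These 7 genes were taken by name, and each matched 1 of the 54532 gene rows of the table. Rnf26 was chosen by its own normalised read counts, which differed steeply between the groups, so its difference is described here without a test. The neighbours were added to ask whether the difference was confined to Rnf26.

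Dorsal root ganglia hold the cell bodies of sensory neurons and lie along the spinal cord; these came from C57BL/6 mice aged 8 weeks. The Hdac2 cKO group (3 libraries) had the genotype Adv-Cre+/hdac2-flop++, which joins floxed Hdac2 with Adv-Cre, known as a Cre line driven from the Advillin gene in primary sensory neurons. The WT group (3 libraries) consisted of littermates with the genotype hdac2-flop++ and no Cre, so both groups carried floxed Hdac2 and no group carried Cre alone. Whole ganglia also hold glia, vessels and other cells outside the reach of this Cre, and fewer cells of a type cannot be told apart from less RNA per cell. Values are normalised read counts, that is, gene reads divided by 1 size factor per library, and a log2 fold change is the mean log2 (value + 1) of Hdac2 cKO less that of WT.

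RNF26 is a RING-type ubiquitin ligase anchored in the endoplasmic reticulum membrane. In human cells it is known to gather endosomes around the nucleus through the ubiquitin-binding adaptor SQSTM1, together with the conjugating enzyme UBE2J1, and to act on the innate immune adaptor STING. A RING finger is a fold held by zinc ions that cysteine and histidine residues bind, and it recruits the ubiquitin-conjugating enzyme. The coding bases that end the Rnf26 reading frame are shown first, because they hold the cysteine codons of the RING finger and because every one of them also lies in another gene model. The capitals mark the 8 in-frame cysteine codons (TGT or TGC) among these 100 codons. The whole frame has 424 codons, of which 15 are cysteine codons. The stretch is chr9:44111678-44111977 of GRCm38 (the assembly of mm10), minus strand, written 5′ to 3′ from the GENCODE M21 transcript and ending before the stop codon.
Rnf26 coding end: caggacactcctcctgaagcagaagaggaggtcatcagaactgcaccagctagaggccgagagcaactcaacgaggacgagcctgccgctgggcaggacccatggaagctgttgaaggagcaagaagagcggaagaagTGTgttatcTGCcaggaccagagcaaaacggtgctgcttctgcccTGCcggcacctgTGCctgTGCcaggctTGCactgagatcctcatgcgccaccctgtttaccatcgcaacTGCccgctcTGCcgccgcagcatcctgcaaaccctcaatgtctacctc

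The same bases stand in the transcripts of Gm49380 (ENSMUSG00000111409), a protein-coding model on the same strand whose first exon repeats most of the Rnf26 coding exon. Rnf26 (ENSMUSG00000053128, chromosome 9, 44095631 to 44113517, minus strand) has 3641 exon bases in GENCODE M21. Of these, 2059 lie in an exon of Gm49380, and they include all 1272 coding bases. On the opposite strand, Gm26737 covers 313 exon bases of Rnf26, Gm47327 covers 262 and Mfrp covers 54. Counting either strand, 2375 exon bases of Rnf26 (65.2%) were shared with another gene and 1266 were not. Of 18401 tested genes with an annotation, 112 (0.609%) shared at least as large a part of their exons, and 65.9% shared none. Rows with every exon base shared were nearly all empty, as described below, and empty rows could not be tested. The 0.609% therefore holds for tested genes only and does not show how rare such sharing is among all annotated rows.

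**Figure D1:**
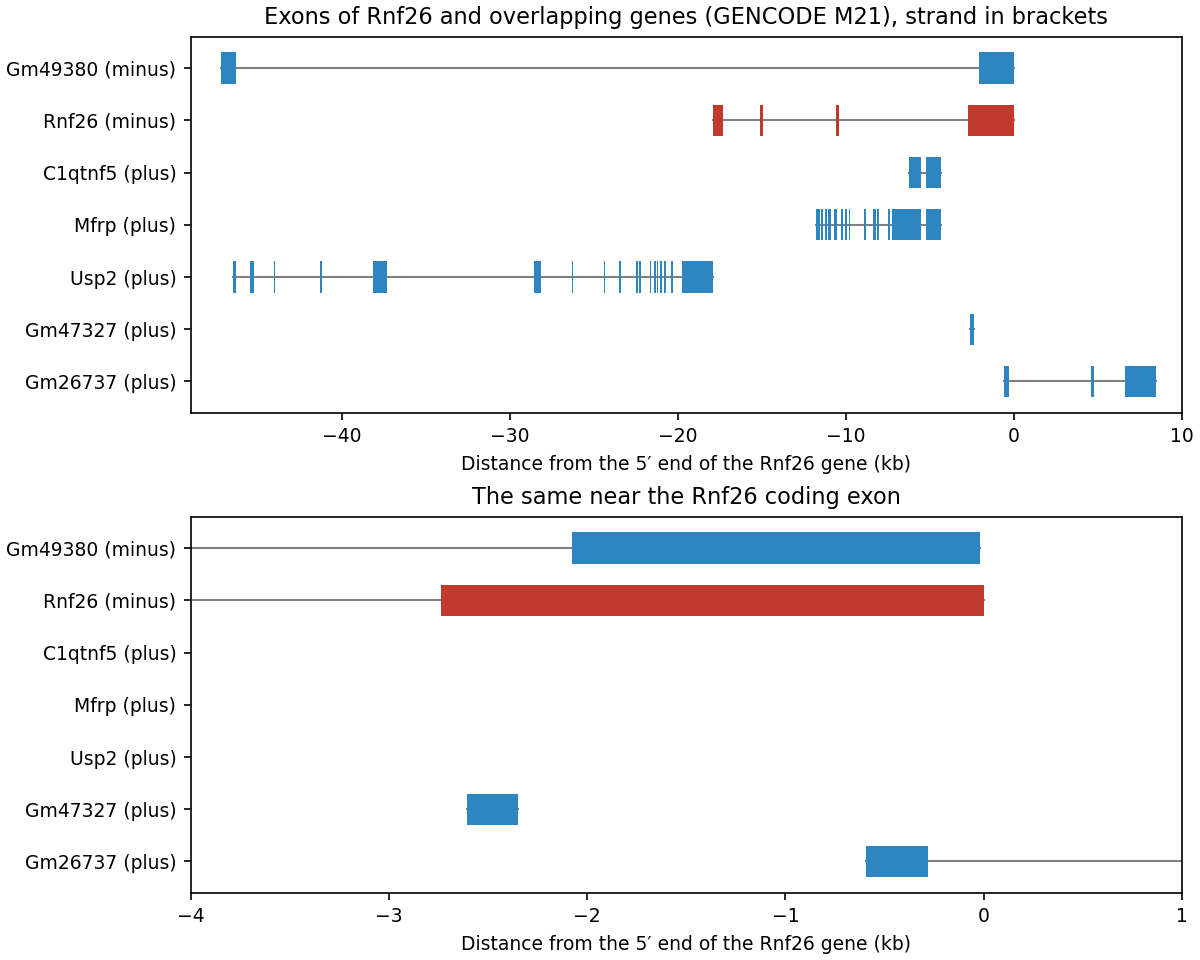
Exons (blocks) and gene bodies (lines) of Rnf26 (red) and the genes that overlap or adjoin it (blue), against distance from the 5′ end of Rnf26 in kb; the lower panel enlarges the coding exon. The Gm49380 exon covers 2059 bases of Rnf26 exon, leaving the 3′ end of that exon and the small exons to its left.

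Rows whose exons lie wholly inside the exons of other rows were nearly all empty in this table. Of 1216 such rows, 1203 (98.9%) were at 0 in every library, against 14845 of 42846 rows (34.6%) with no shared exon base. The share was 99.1% both for the 741 rows shared wholly on the same strand and for the 453 rows shared wholly on the opposite strand only. Rows made only of bases that belong to more than 1 gene, on either strand, thus almost never received a read. In Rnf26 the 1266 unshared bases form 6 stretches and hold 0 coding bases. The longest are 563 bases at 44095631 to 44096193 and 271 bases at 44111171 to 44111441. The 271 bases, with 128 more at 44110781 to 44110908, are 3′ untranslated sequence of the single-exon coding transcript. The 563 bases belong to the last exon of alternative transcripts, annotated as targets of nonsense-mediated decay or as processed transcripts. Which stretch held the counted reads cannot be told from gene totals.

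**Figure D2:**
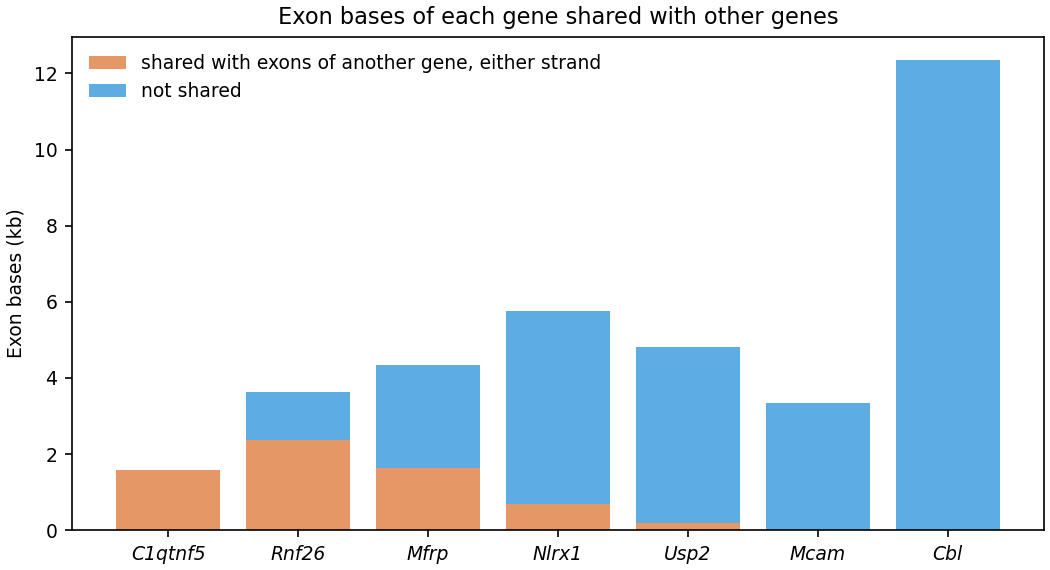
Exon bases (kb) of each gene, split into bases shared with exons of another gene on either strand (orange) and bases shared with none (blue), in GENCODE M21. C1qtnf5 has no unshared base, Rnf26 has 1266 of 3641, and Cbl shares none.

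The Rnf26 row held few reads in every Hdac2 cKO library. Its normalised read counts were 5.05, 4.91 and 5.60 in Hdac2 cKO 1, 2 and 3, from 5, 5 and 8 reads. In WT 1, 2 and 3 the row reached 57.4, 171 and 88.9 normalised read counts, from 65, 115 and 87 reads. The knockout libraries lay close together and far below the WT libraries, which themselves spread widely, WT 2 being highest. The few reads limit the precision of each value: the exact Poisson 95% interval, which covers counting error only, ran from 1.64 to 11.8 normalised read counts for Hdac2 cKO 1. The means were 5.19 ± 0.360 in Hdac2 cKO and 106 ± 58.8 in WT (SD, n = 3 each), so the Hdac2 cKO mean was 4.90% of the WT mean. The log2 fold change was -3.97. Rnf26 passed the filter on low values (10 or more in at least 3 libraries) only through the WT group. The row of Gm49380, which takes in the same coding exon, stood at 2.02, 4.91 and 2.10 normalised read counts in Hdac2 cKO 1, 2 and 3 and at 1.76, 5.96 and 0 in WT 1, 2 and 3. Those groups overlapped. The 439 unshared bases of Gm49380 lie in its other exon, so in both rows the whole Rnf26 reading frame falls in shared bases.

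**Figure D3:**
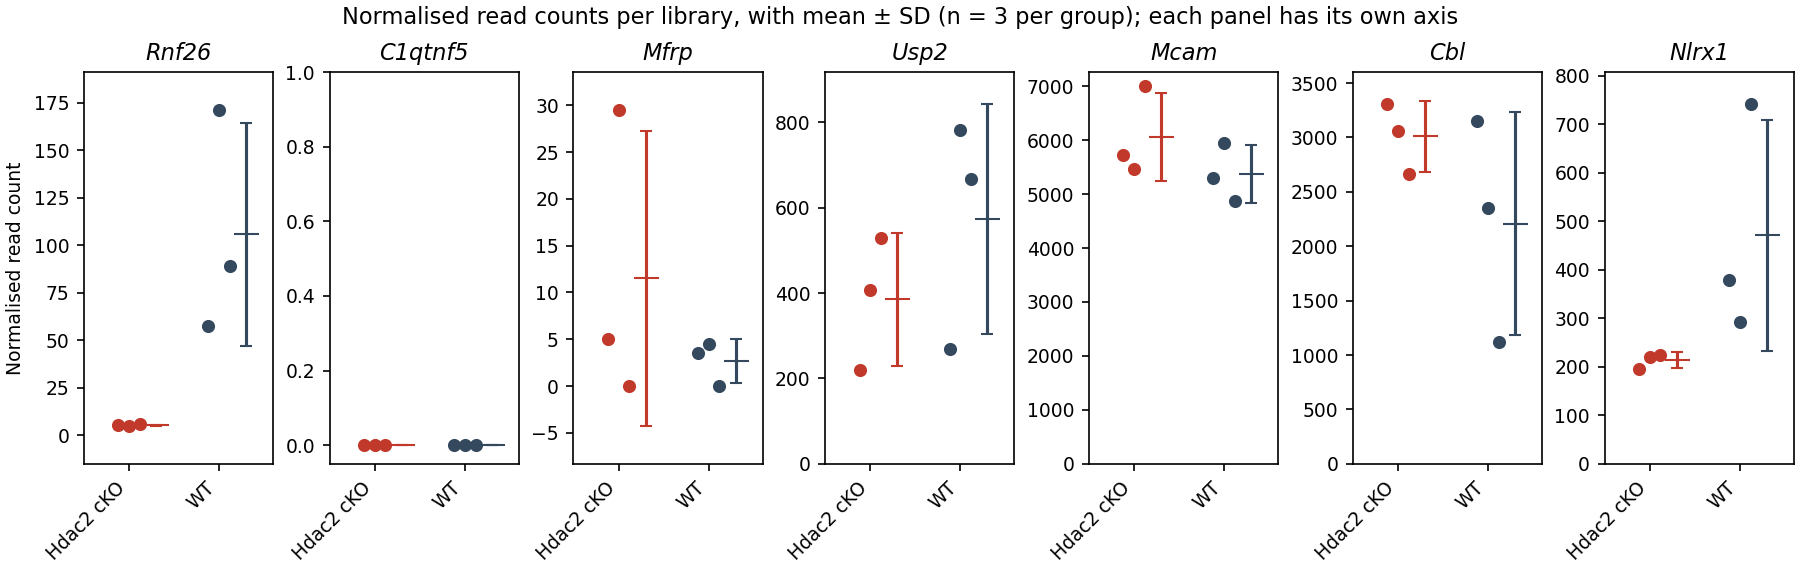
Normalised read counts of the 7 genes in each library (points), with the mean and SD of each group (bar, n = 3 per group); each panel has its own linear axis. Rnf26 and Nlrx1 are lower in every Hdac2 cKO library, C1qtnf5 is at 0 throughout and the other genes overlap.

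Mfrp and C1qtnf5 overlap each other and are known for the eye: MFRP is a membrane protein of the retinal pigment epithelium with a frizzled-related domain, and C1QTNF5 is a short secreted protein with a collagen-like and a C1q domain. In mouse and human the C1qtnf5 reading frame lies in the 3′ part of a joint transcript with Mfrp. RefSeq (GRCm38.p6) gives both genes the same start, and their common window from 250 bases before to 50 bases after it (chr9:44101520-44101819, plus strand, 5′ to 3′) is shown for that reason, with CpG pairs in capitals.
Mfrp and C1qtnf5 promoter window: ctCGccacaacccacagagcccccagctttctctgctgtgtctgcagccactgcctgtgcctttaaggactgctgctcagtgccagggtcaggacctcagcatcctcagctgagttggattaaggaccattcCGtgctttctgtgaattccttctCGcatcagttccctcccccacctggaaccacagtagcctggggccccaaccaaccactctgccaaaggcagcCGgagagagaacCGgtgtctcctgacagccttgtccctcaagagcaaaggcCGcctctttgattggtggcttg

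This window holds 6 CpG pairs and 58.0% G or C, against medians of 7 CpG pairs and 52.7% over 32851 RefSeq promoter windows of the same length. The windows of the 7 genes fell apart by CpG content. Cbl had 43 pairs, Usp2 had 33, Mcam had 29 and Rnf26 had 20, whereas each of the 2 Nlrx1 windows had 5. The RefSeq window of Rnf26 lies inside the longer first exon that GENCODE gives it.

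C1qtnf5 (ENSMUSG00000079592, chromosome 9, 44107245 to 44109187, plus strand) was at 0 in all 6 libraries. All of its 1589 exon bases lie in exons of Mfrp, so under the pattern above its row could take almost no read, and the 0 gives no upper limit on its RNA. Mfrp (ENSMUSG00000034739, 44101729 to 44109187, plus strand) keeps 2691 unshared exon bases of 4334. Its libraries read 5.05, 29.5 and 0 normalised read counts in Hdac2 cKO 1, 2 and 3, against 3.53, 4.47 and 0 in WT 1, 2 and 3. Hdac2 cKO 2, with 30 reads, was the highest, and both libraries numbered 3 had none. Mfrp did not pass the filter and entered no test across genes; by the exact two-sided permutation test of its means p was 0.5.

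The other 4 neighbours could be tested. Across all 18410 genes tested, limma called 0 at an adjusted p of 0.05 (0.0%), with 341 genes at an unadjusted p under 0.05 (1.85%). EdgeR on recovered reads also called 0 genes (0.0%), while DESeq2 called 25 of 18308 (0.137%). None of the 4 neighbours was called by any of these tools, and each had a limma adjusted p of 0.927. Hdac2 itself had the same limma adjusted p, so a missing limma call does not show equal levels. Groups without overlap were found for 1572 of the 18410 genes (8.54%) and, of the 4 neighbours, for Nlrx1, among 719 genes that lay lower (3.91%) and 853 that lay higher (4.63%) in Hdac2 cKO.

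Nlrx1 (ENSMUSG00000032109, chromosome 9, 44252717 to 44268599, minus strand) encodes a NOD-like receptor of mitochondria known to restrain antiviral signalling. Its libraries read 195, 220.2 and 225 normalised read counts in Hdac2 cKO 1, 2 and 3, against 379, 293 and 742 in WT 1, 2 and 3. Every Hdac2 cKO library was below every WT library, and WT 3 stood far above the rest. The means were 213 ± 16.2 in Hdac2 cKO and 472 ± 238 in WT (SD, n = 3 each). The log2 fold change was -1.03 (SE 0.37, 95% interval from -1.91 to -0.15). By the exact two-sided permutation test p was 0.1, which 3 against 3 cannot go below, and in the fit over all genes Nlrx1 did not pass (limma unadjusted p = 0.0275, adjusted p = 0.927). Leaving out WT 3 gave -0.64. On the opposite strand Gm10686 covers 683 bases of Nlrx1, all coding. The Gm10686 row stood at 7.07, 12.8 and 8.39 normalised read counts in Hdac2 cKO 1, 2 and 3 and at 7.94, 0 and 100.2 in WT 1, 2 and 3, so it was highest in the same library as Nlrx1.

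Usp2 (ENSMUSG00000032010, chromosome 9, 44067021 to 44095627, plus strand) encodes a deubiquitinase known as an output gene of the circadian clock, and ends just before the last exon of Rnf26. Its libraries read 219, 408 and 529 normalised read counts in Hdac2 cKO 1, 2 and 3, against 269, 783 and 667 in WT 1, 2 and 3. The groups overlapped, and replicate 1 was the lowest library in each. The means were 385 ± 156 in Hdac2 cKO and 573 ± 269.7 in WT (SD, n = 3 each). This gave a log2 fold change of -0.52 (SE 0.50, 95% interval from -1.69 to 0.64), and the exact permutation test gave p = 0.4. It was -0.16 without Hdac2 cKO 1, -0.80 without Hdac2 cKO 3, -0.997 without WT 1, -0.23 without WT 2 and -0.34 without WT 3. Of 17 clock and clock output genes, 8 were higher and 9 lower in Hdac2 cKO. Their log2 fold changes had a median of -0.02, against 0.06 over all genes tested. Limma, edgeR and DESeq2 called 0 of them, with 1 at an unadjusted p under 0.05 in limma. The members with the smallest p were Dbp and Clock. Dbp, a clock-driven transcription factor, averaged 525 ± 63.7 in Hdac2 cKO and 1051 ± 255 in WT. Clock, a core activator of the cycle, averaged 2508 ± 122 in Hdac2 cKO and 2023 ± 304 in WT (SD, n = 3 each).

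Mcam (ENSMUSG00000032135, chromosome 9, 44134469 to 44142727, plus strand) encodes CD146, an adhesion molecule of vessel walls and other cells. Mcam measured 5719.6, 5469 and 7000.3 normalised read counts in Hdac2 cKO 1, 2 and 3, against 5306, 5946 and 4873 in WT 1, 2 and 3. The groups overlapped. The means were 6063 ± 822 in Hdac2 cKO and 5375 ± 539 in WT (SD, n = 3 each). The log2 fold change was 0.17 (SE 0.20, 95% interval from -0.29 to 0.63), and the exact permutation test gave p = 0.4. It was 0.06 without Hdac2 cKO 3 and 0.10 without WT 3. Of 16 endothelial and mural markers, 7 were higher and 9 lower, with a median of -0.11; limma, edgeR and DESeq2 called 0, with 0 at an unadjusted p under 0.05 in limma. Their summed level ranged from 13949.9 to 17522 in Hdac2 cKO and from 14374 to 19629.9 in WT, and no marker was at 0. Emcn, a sialomucin of endothelium, and Tie1, an endothelial receptor kinase, had the smallest p of the list, with log2 fold changes of -0.49 and -0.50.

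Cbl (ENSMUSG00000034342, chromosome 9, 44142976 to 44234049, minus strand) encodes a RING-type ubiquitin ligase that marks receptor tyrosine kinases for turnover. Cbl measured 3308, 3056 and 2664 normalised read counts in Hdac2 cKO 1, 2 and 3, against 3151, 2354 and 1116 in WT 1, 2 and 3. The groups overlapped, and WT 3 was the lowest library. The means were 3009 ± 324 in Hdac2 cKO and 2207 ± 1025 in WT (SD, n = 3 each). This gave a log2 fold change of 0.57 (SE 0.38, 95% interval from -0.32 to 1.45), and the exact permutation test gave p = 0.3. It was 0.14 without WT 3 and 0.89 without WT 1.

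Per kilobase of exon the 7 genes spanned a wide range of levels. Over all 6 libraries the normalised read count per kilobase averaged 1707 for Mcam, 211 for Cbl, 99.5 for Usp2, 59.6 for Nlrx1, 15.2 for Rnf26, 1.64 for Mfrp and 0 for C1qtnf5. This divides by all exon bases, though 2375 of the 3641 exon bases of Rnf26 and all of those of C1qtnf5 were shared. The 0 of C1qtnf5 therefore sets no upper limit on its RNA. By ranges over the 6 libraries, only Mcam stood clear of the next gene, with 1455 to 2089.6 per kilobase, whereas Cbl ran from 90.4 to 268. These ranges pool both groups and do not compare genes within a library. Neighbours further down this order overlapped: Usp2 ran from 45.5 to 163, Nlrx1 from 33.9 to 129, Rnf26 from 1.35 to 47.0 and Mfrp from 0 to 6.80. By group means, the place of Rnf26 in this order differed between the groups. Per kilobase of exon it averaged 1.42 in Hdac2 cKO, below Mfrp at 2.66, and 29.1 in WT, above Mfrp at 0.615. The Mfrp mean in Hdac2 cKO rested on Hdac2 cKO 2, with 30 reads, against 5 in Hdac2 cKO 1 and 0 in Hdac2 cKO 3. The lower place of Rnf26 in Hdac2 cKO thus depended on 1 library. Per kilobase of unshared exon, Rnf26 averaged 4.10 in Hdac2 cKO and 83.6 in WT, and Nlrx1 averaged 42.1 in Hdac2 cKO and 93.1 in WT.

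The neighbourhood was also read whole, from 250 kb before to 250 kb after Rnf26, without choosing genes. It held 35 annotated rows beside Rnf26, of which 6 were at 0 in every library and 17 were tested. Of these, 9 were higher and 8 lower in Hdac2 cKO, and their log2 fold changes had a median of 0.10, against 0.06 over all genes tested. Limma called 0 of the 17 and edgeR and DESeq2 called 0 as well, with 2 at an unadjusted p under 0.05 in limma. Groups did not overlap for 3 (17.6%, against 8.54% over all genes): Gm30373, Pdzd3 and Nlrx1. Within 100 kb of Rnf26 the groups overlapped for all 6 genes tested, and their log2 fold changes ran from -0.52 to 0.57.

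Beside Nlrx1 and Cbl, the tested genes with the largest differences in this window were Gm30373 and Vps11 on the higher side and Pdzd3 and H2afx on the lower. Gm30373, a lincRNA, stood at 56.6, 49.1 and 32.2 normalised read counts in Hdac2 cKO 1, 2 and 3, against 9.71, 14.9 and 6.13 in WT 1, 2 and 3. The difference of 2.10 on the log2 scale (SE 0.64) did not pass (limma adjusted p = 0.927) and was opposite in direction to that of Rnf26. Pdzd3, which encodes a PDZ scaffold protein of epithelia, stood at 11.1, 0.983 and 11.2 in Hdac2 cKO 1, 2 and 3, against 17.6, 23.8 and 26.6 in WT 1, 2 and 3. The log2 fold change of -1.82 (SE 0.97) did not pass (limma adjusted p = 0.927). H2afx, the histone variant that marks DNA breaks when phosphorylated, stood at 401, 428 and 601 in Hdac2 cKO 1, 2 and 3, against 506, 563 and 1833 in WT 1, 2 and 3. Its groups overlapped, and WT 3 was again far from the others. Vps11, a subunit of tethering complexes of endosomes and lysosomes, had a log2 fold change of 0.35 (SE 0.28). Thy1, a surface glycoprotein abundant on neurons, lies between Gm30373 and Usp2 and had a log2 fold change of -0.10 (SE 0.29, 95% interval from -0.78 to 0.59).

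**Figure D4:**
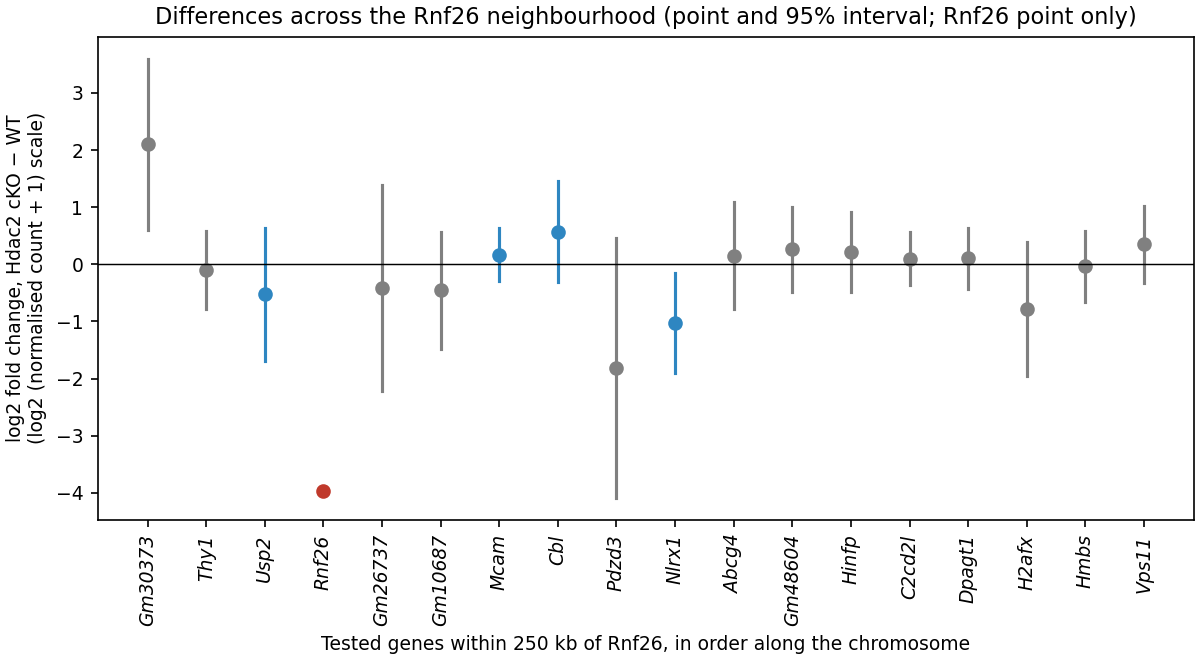
Log2 fold change, Hdac2 cKO minus WT, of the 18 tested genes within 250 kb of Rnf26 in chromosome order, with 95% intervals from limma; Rnf26 (red) is shown without one, other named neighbours are blue and the rest grey. Rnf26 stands at -3.97, the others lie between -1.82 and 2.10, and the intervals of Gm30373 and Nlrx1 leave out 0.

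The other genes that overlap an exon of the 7 genes ranged from empty rows to a well-covered one, Gm10687. Gm47327 and Gm20444, which lie inside exons of Rnf26 and of Mfrp and C1qtnf5, were at 0 in all 6 libraries. Gm26737, which starts on the opposite strand in the coding exon of Rnf26, averaged 14.7 ± 8.30 in Hdac2 cKO and 19.9 ± 9.90 in WT (SD, n = 3 each). The log2 fold change of Gm26737 was -0.41 (SE 0.77). Gm10687, antisense to the start of Mcam, averaged 308 ± 43.0 in Hdac2 cKO and 472 ± 275 in WT (SD, n = 3 each). Gm39325, which overlaps Usp2, reached at most 4.47 normalised read counts.

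Outside the window, the 5 genes whose values over the 6 libraries were most like those of Rnf26 were Olfr920, Pex11g, Necap2, A330033J07Rik and A230083G16Rik. Their Pearson correlations of log2 values with Rnf26 were 0.996, 0.991, 0.986, 0.985 and 0.984. These are descriptions over 6 libraries that include the difference between the groups, and they come from a search of all genes tested. Olfr920, an olfactory receptor gene elsewhere on chromosome 9, stood at 31.3, 25.6 and 32.9 normalised read counts in Hdac2 cKO 1, 2 and 3, against 107, 177 and 128 in WT 1, 2 and 3. WT 2 was its highest library, as for Rnf26. Pex11g, a peroxisome division gene, averaged 40.6 ± 1.08 in Hdac2 cKO and 60.9 ± 7.35 in WT, and Necap2, an adaptor-associated gene of endocytosis, 643 ± 26.6 in Hdac2 cKO and 841 ± 39.7 in WT (SD, n = 3 each).

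Known partners and targets of RNF26 were read from a list of 11 genes. Of these, 9 were higher and 2 lower in Hdac2 cKO, and their log2 fold changes had a median of 0.30, against 0.06 over all genes tested. Limma, edgeR and DESeq2 called 0 of them, with 0 at an unadjusted p under 0.05 in limma. Groups did not overlap for 4 of the 11, against 8.54% of all genes tested, and nothing particular to the list was tested. Tmed1, a cargo receptor of the early secretory pathway, averaged 248 ± 40.8 in Hdac2 cKO and 374 ± 52.5 in WT, and Tmem33, a membrane protein of the endoplasmic reticulum, 3778 ± 471 in Hdac2 cKO and 2816 ± 599 in WT (SD, n = 3 each). Of 17 other RING ligases of the endoplasmic reticulum membrane, 9 were higher and 8 lower, with a median of 0.10. Limma, edgeR and DESeq2 called 0, with 0 at an unadjusted p under 0.05 in limma. March6, a ligase of protein degradation at that membrane, had the smallest p, with a log2 fold change of 0.34 (SE 0.26).

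As a check of the labels, Hdac2 itself, on chromosome 10, stood at 499, 372 and 535 normalised read counts in Hdac2 cKO 1, 2 and 3, against 2816, 1715 and 3498 in WT 1, 2 and 3. Its log2 fold change was -2.47, yet limma did not call it (unadjusted p = 7.6e-05, adjusted p = 0.927). Reads per library ranged from 18943595 (WT 2) to 42070531 (Hdac2 cKO 3). Defining markers of sensory neurons were present, with none of the 15 at 0; 6 were higher and 9 lower, with a median of -0.02 among their log2 fold changes, and limma called 0, with 2 at an unadjusted p under 0.05. Avil averaged 9231 ± 969 in Hdac2 cKO and 14943 ± 2655 in WT, and Scn9a, a sodium channel of nociceptors, 12191 ± 1327 in Hdac2 cKO and 7087 ± 3476 in WT (SD, n = 3 each). Avil is the Advillin gene of the Cre line, which only the Hdac2 cKO group carried, and the part of that line in its values was not tested. Among markers of other cells and tissues, those of skeletal muscle and of myelinating Schwann cells moved with the groups. All 14 tested skeletal muscle markers were lower, with a summed level from 3696 to 6511 in Hdac2 cKO and from 10265 to 28627 in WT. The muscle list includes Pvalb, which is not confined to muscle, and its part in the sum was not separated. All 10 markers of myelinating Schwann cells were lower, with a summed level from 167542 to 241797 in Hdac2 cKO and from 378979 to 392323 in WT. DESeq2 called Des, Ttn, Myh7 and Tcap of the muscle markers and Mag of the Schwann cell markers, all lower. Over all genes DESeq2 called 25 of 18308 (0.137%), 2 higher and 23 lower in Hdac2 cKO. Limma and edgeR called 0 markers of either list. At an unadjusted p under 0.05 in limma were 12 muscle and 5 Schwann cell markers, against 1.85% of all genes tested. Of 7 satellite glia markers 3 were higher and 4 lower (median -0.16), and of 9 macrophage markers 6 were higher and 3 lower (median 0.36), none of them at an unadjusted p under 0.05. Satellite glia markers summed to 114793 to 151859 in Hdac2 cKO and 141473 to 358680.3 in WT, and macrophage markers to 2034 to 5249.8 in Hdac2 cKO and 2104 to 4463 in WT. The part of these markers in the Rnf26 and Nlrx1 values was not tested.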

How the data were processed

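RNA from dorsal root ganglia was sequenced in 6 libraries, 3 per group, grouped and numbered by sample titles. The submitters' processing notes name mm10 and the tools HISAT2, SAMtools, featureCounts and DESeq2, with no order. Tool versions, the annotation and the handling of strand or of reads in 2 genes: not given in the sources used here. The deposited signal values are normalised read counts. Each column was a whole multiple of its smallest value above 0 (100% of values within 0.01), which gave back the reads and 1 size factor for each library (0.672 to 1.43). Of 54532 rows, 54495 matched GENCODE M21, which gave symbols, coordinates and exons. The labels do not tell whether each library is 1 mouse, so the spread behind every p-value may be technical.

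Genes needed a value of 10 or more in 3 libraries, and the 18410 that had it were tested with limma 3.58.1 (R 4.3.3) on log2 (value + 1), with trend and robust variances, two-sided, with Benjamini-Hochberg adjustment and a threshold of 0.05. Alternatives were edgeR 4.0.16 and DESeq2 1.42.0 on recovered reads, other scalings, pseudocounts and filters, other windows, a replicate block and leaving out libraries. Scripts were tested on simulated data. An exon base counted as shared if an exon of another row covered it on either strand. Same-numbered libraries deviated together from their group means (correlations of 0.40, 0.15 and 0.42 for numbers 1, 2 and 3). By the rule used here the numbers pair them, a pairing read from the values alone. For number 2 this was weak, as differently numbered Hdac2 cKO 2 and WT 1 correlated by 0.34. The main limma fit and the permutation tests took no account of the numbers. No pair of replicates agreed within sampling noise (chi-square per gene at least 17.3).

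The members, gene lists and tests were chosen with earlier results of these data known. Named genes were the 7 members, genes overlapping their exons, the 3 tested genes with the largest difference in each direction in the window, the 5 genes most like Rnf26, and of each list the called members or the 2 with the smallest p. A further gene under this rule is not reported here. Thy1 was named after its values were seen.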

Additional observations from a re-analysis of the deposited data

How the results depend on the processing

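The count of genes called was 0 in limma under the pseudocounts, filters and scalings tried, in edgeR with TMM and with RLE scaling, with the replicate block in limma and in edgeR (0 and 0), and over the limma fits that left out 1 library each (0 to 0). DESeq2 called 25 genes, 2 higher and 23 lower in Hdac2 cKO, and 5 of the genes on the lists; limma without both libraries numbered 3 called 5 genes, 4 higher and 1 lower. Within 250 kb of Rnf26, with Rnf26 itself left out, the count was 0 under every alternative, windows of 100 and 1000 kb included. The replicate block changed no call. In limma the block raised the number of genes at an unadjusted p under 0.05 from 341 to 1094, and from 2 to 3 within 250 kb of Rnf26. Log2 fold changes over the fits without 1 library each ran from -0.997 to -0.16 for Usp2, 0.06 to 0.25 for Mcam, 0.14 to 0.89 for Cbl and -1.31 to -0.64 for Nlrx1. Mcam turned to -0.00613 without both libraries numbered 3, which left fewer samples. Rnf26 ran from -4.35 (DESeq2) to -3.31 (pseudocount of 5), and without any 1 WT library, or without both libraries numbered 3, it did not reach 10 in 3 libraries and had no value. The 5 to 8 reads in the Hdac2 cKO libraries limit the precision of its ratio.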
